A study of Mus musculus with 14 samples.

Results

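Amacrine and horizontal cells are the inhibitory interneurons of the retina, and their transmitter machinery and calcium-binding markers were followed here through 9 genes, taken by symbol from a table of 20902 genes. All 9 were found. They are Gad1 and Gad2, Slc32a1, Slc6a9, Chat and Slc18a3, Th, Calb1 and Calb2. RNA was sequenced from 14 libraries of C57BL/6 mice, prepared in the embryo (day 16.5, e16.5), in the first postnatal week (day 7, P7) or in the adult (P60). Of these, 9 came from retinal microglia, with 3 libraries an age. These cells were sorted from Cx3cr1-GFP animals, in which the fractalkine receptor locus drives green fluorescent protein, as GFP+ CD45+ CCR2- cells. Each microglia library was a pool of several retinas or litters, and the labels call the 3 of an age biological replicates. The other 5 libraries came from wild-type whole retina, with 3 at e16.5, taken from central retina, and 1 each at P7 and P60. For e16.5 retina the labels name only replicate numbers, so a p-value there measures the spread between these libraries, which may be technical. Genotype, sorting and the RNA kit differ together between microglia and retina and cannot be told apart. The same holds for age and the region sampled between e16.5 retina and the later ages.

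Most amacrine cells release GABA or glycine. Gad1 and Gad2 encode the GABA-synthesising enzymes GAD67 and GAD65, Slc32a1 encodes the transporter VGAT that loads GABA or glycine into synaptic vesicles, and Slc6a9 encodes the glycine transporter GlyT1, which glycinergic amacrine cells use to take up glycine. Starburst amacrine cells also release acetylcholine, made by choline acetyltransferase (Chat) and loaded into vesicles by VAChT (Slc18a3), and a sparse amacrine type makes dopamine with tyrosine hydroxylase (Th). Calb1 encodes calbindin, a marker of horizontal cells and some amacrine cells, and Calb2 encodes calretinin, found in amacrine and some ganglion cells. Neither calcium-binding protein makes or carries a transmitter. Microglia are the resident macrophages of the retina and are not known for any of these functions, although the sort starts from tissue rich in such neurons.

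The members lie at separate loci except for the cholinergic pair. Coordinates are of build GRCm38, in the GENCODE annotation. Gad1 (ENSMUSG00000070880, chromosome 2, 70553072 to 70602014, plus strand) and Gad2 (ENSMUSG00000026787, chromosome 2, 22622205 to 22693874, plus strand) share a chromosome, as does Slc32a1 (ENSMUSG00000037771, 158610767 to 158615748, plus strand). Slc6a9 (ENSMUSG00000028542, 117834506 to 117875198, plus strand) and Calb1 (ENSMUSG00000028222, 15881264 to 15908064, plus strand) lie on chromosome 4. Calb2 (ENSMUSG00000003657) spans 110137502 to 110168210 on chromosome 8, minus strand. Th (ENSMUSG00000000214) spans 142892752 to 142931128 on chromosome 7, minus strand. Slc18a3 (ENSMUSG00000100241, chromosome 14, 32462438 to 32464850, minus strand) is a single-exon gene inside Chat (ENSMUSG00000021919, 32408203 to 32465989, same strand), and the exons of the pair share 0 bases. Exons of Slc6a9 share 1429 bases with Ccdc24 on the other strand, and no source used here says whether the counting used strand, so reads of that stretch may belong to either gene. The same holds for 46 exon bases of Slc6a9 shared with B4galt2, 511 with Gm17114, and 697 exon bases of Slc32a1 shared with the antisense gene Gm14205.

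Promoter sequences are shown for the pairs whose courses are compared below, the GABA enzymes and the nested cholinergic genes, and for Th. They come from RefSeq promoter windows of GRCm38.p6, which matched 7 of the 9 members, with none for Calb1 or Calb2. Each stretch comes from the 250 bases before the RefSeq start site and ends before the first transcript start annotated within the window. It is written 5′ to 3′ on the gene's strand. The Gad1 and Th windows lie inside their genes, whose most upstream annotated starts are 70553072 for Gad1 and 142931128 for Th. Capitals mark matches on either strand to CANNTG (the E-box of basic helix-loop-helix factors), TATAAA (a core promoter element) or TGACGTCA (the cAMP response element). The windows are chr2:70561879-70562041 for Gad1, chr2:22622077-22622204 for Gad2, chr14:32465990-32466159 for Chat, chr14:32464851-32465100 for Slc18a3 and chr7:142900015-142900245 for Th.
Gad1 promoter: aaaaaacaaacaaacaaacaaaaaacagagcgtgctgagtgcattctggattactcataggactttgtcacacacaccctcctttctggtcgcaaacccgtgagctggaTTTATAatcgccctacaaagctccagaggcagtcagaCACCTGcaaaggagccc
Gad2 promoter: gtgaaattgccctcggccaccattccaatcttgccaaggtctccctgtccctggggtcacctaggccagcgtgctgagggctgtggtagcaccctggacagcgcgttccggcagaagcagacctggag
Chat promoter: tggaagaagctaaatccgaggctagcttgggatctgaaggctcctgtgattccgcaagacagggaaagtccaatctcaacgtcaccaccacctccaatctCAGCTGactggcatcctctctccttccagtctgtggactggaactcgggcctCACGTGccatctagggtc
Slc18a3 promoter: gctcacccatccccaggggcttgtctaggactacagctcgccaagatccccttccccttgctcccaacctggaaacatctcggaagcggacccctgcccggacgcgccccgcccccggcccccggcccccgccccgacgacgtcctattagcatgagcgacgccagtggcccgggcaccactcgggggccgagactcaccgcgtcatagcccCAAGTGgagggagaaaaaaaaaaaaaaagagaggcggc
Th promoter: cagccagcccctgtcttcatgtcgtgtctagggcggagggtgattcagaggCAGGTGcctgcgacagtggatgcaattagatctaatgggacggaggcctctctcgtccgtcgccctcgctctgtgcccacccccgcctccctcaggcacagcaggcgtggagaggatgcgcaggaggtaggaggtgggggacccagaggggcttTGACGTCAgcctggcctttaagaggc
Among 32851 promoter windows of 250 bases, 66.2% held CANNTG, 12.4% held TATAAA and 1.55% held TGACGTCA. Gad1 held 1 TATAAA match and Gad2 held 0, while the cAMP response element letters occurred in Th and in none of the other 6 members with a window. These matches are a description of the letters and say nothing of binding.

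Microglia libraries held 8996298 to 17446905 counts and retina libraries 20469100 to 24361772. The sorted cells carried their markers, since 10 of 10 microglia genes were detected and summed to 8349 to 17153 counts scaled to library size (CPM) against 57.7 to 78.1 in retina. Neuronal RNA was present as well. The median of 8 pan-neuronal genes stood in the single microglia libraries at 10.7% to 15.8% of the retina level at e16.5, 6.63% to 9.09% at P7 and 1.44% to 11.6% at P60, with none of the 8 at 0. The second P60 microglia library stood apart in neuronal RNA, with 4894 CPM over 12 rod genes where its companions held 1536 and 779. In bulk RNA, fewer cells of a type and less RNA per cell cannot be told apart.

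In whole retina, transmitter genes of the inhibitory interneurons stood higher after birth. At P7, 6 of the 9 members (Gad1, Slc32a1, Slc6a9, Chat, Slc18a3 and Calb1) were at least 2-fold above e16.5 and outside the range of its 3 libraries, and 0 were 2-fold below. Over all 15035 genes with at least 1 CPM on either side, 20.8% were 2-fold higher and 15% lower. Th, under 1 CPM at both ages, could not enter that count. From P7 to P60, 5 members (Gad1, Gad2, Chat, Calb1 and Th) were at least 2-fold higher, against 11.7% of 15361 genes, and 0 were lower, against 12.2%. From e16.5 to P60, 8 members were at least 2-fold higher (26.5% of 15366 genes) and 0 lower (24.3%), and Gad2 was the exception. With 1 library at P7 and at P60 these differences carry no test, and the intervals given below (exact Poisson, 95%) cover counting error only.

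**Figure D1:**
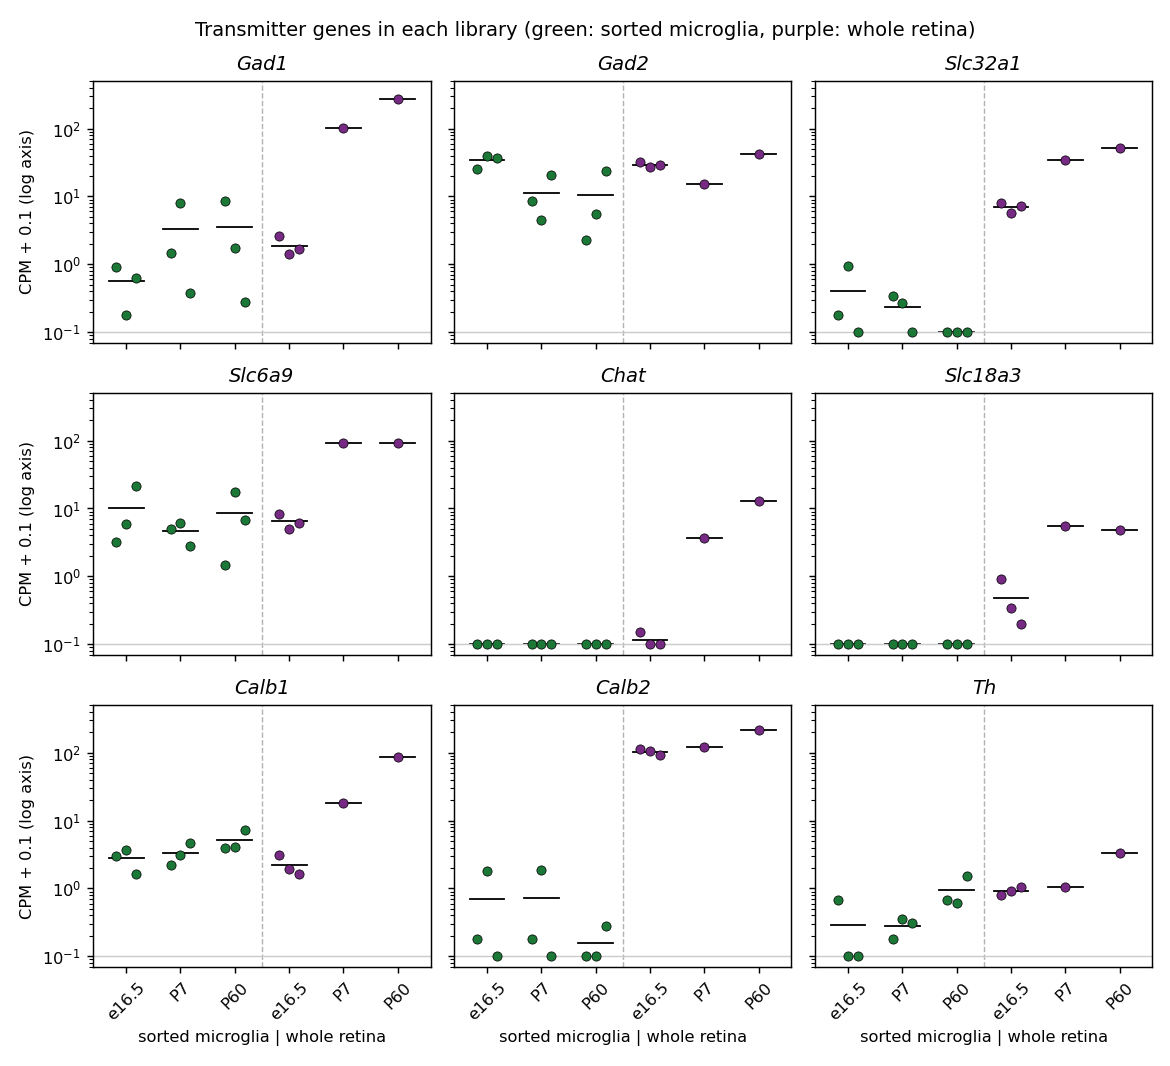
CPM of each member in each library, with 0.1 CPM added on a log axis; green points are sorted microglia, purple points whole retina, and black bars group means. Chat and Slc18a3 lie on the grey line of 0 counts in all 9 microglia libraries, while Gad2 in e16.5 microglia overlaps e16.5 retina.

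The GABA-synthesising enzymes followed different courses. Gad1 stood at 2.47, 1.33 and 1.57 CPM in the e16.5 retina libraries, at 101 CPM (interval 97.1 to 104.5) at P7 and at 272 CPM (interval 265.7 to 279.1) at P60. The P7 level was 56.2-fold and the P60 level 152-fold above the e16.5 mean of 1.79 ± 0.602 CPM (SD, n = 3). Gad2 stood at 32.1, 27.2 and 28.7 CPM at e16.5, at 15.2 CPM (interval 13.8 to 16.7) at P7 and at 42.6 CPM (interval 40.0 to 45.3) at P60. Its P7 level lay below all 3 e16.5 libraries, at 0.518 times their mean of 29.3 ± 2.52 CPM (SD, n = 3), and its P60 level above them, at 1.45 times. Per length, on the deposited FPKM scale, Gad1 stood at 0.0846 to 0.228 times Gad2 in the e16.5 libraries. The ratio was 12.2 in the P7 library and 24.8 in the P60 library. The ratio of counts was 6.63 at P7 and 6.39 at P60, so the step from 12.2 to 24.8 was not seen in counts. The length that counts and FPKM together imply for Gad2 was 2810 bases at P7 and 5056 at P60. The more abundant GAD transcript of the embryonic retina was thus Gad2, and that of the postnatal retina Gad1. Of the printed promoters of this pair, only that of Gad1 held TATAAA.

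Slc32a1, the vesicular transporter, stood at 7.92, 5.55 and 7.13 CPM at e16.5, at 34.4 CPM (interval 32.3 to 36.6) at P7 and at 52.3 CPM (interval 49.4 to 55.3) at P60. Its P7 level was 5.01-fold and its P60 level 7.61-fold above the e16.5 mean. Slc6a9, the glycine transporter, had nearly the same CPM at P7 and P60. It stood at 8.17, 4.93 and 6.09 CPM at e16.5, at 91.4 CPM (interval 87.9 to 95.05) at P7 and at 91.8 CPM (interval 88.0 to 95.7) at P60. The P7 level was 14.3-fold above the e16.5 mean, and the intervals of P7 and P60 overlap. Per length the deposited FPKM of Slc6a9 was 65.2 at P7 and 100.3 at P60.

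The nested cholinergic genes were near the limit of detection in e16.5 retina. Chat had 1, 0 and 0 counts there, 100 counts (3.56 CPM, interval 2.89 to 4.33) at P7 and 300 counts (12.7 CPM, interval 11.3 to 14.3) at P60. Against that single count, the ratio was 259.9 at P7, with a counting interval of 45.6 to 10368 (exact, 95%, on total counts), and 855 at P60, with an interval of 152 to 33901. Slc18a3, inside Chat, had 16, 5 and 2 counts at e16.5 (0.807, 0.237 and 0.0983 CPM). It stood at 5.48 CPM (interval 4.65 to 6.42) at P7 and 4.80 CPM (interval 3.96 to 5.77) at P60. From P7 to P60 the pair parted, with Chat 3.58-fold higher and Slc18a3 at 0.876 times its P7 level with overlapping intervals. Per length, Chat stood at 1.10 times Slc18a3 at P7 and at 13.5 times at P60. The length that counts and FPKM together imply for Chat was 1386 bases at P7 and 460 at P60, so the FPKM of 2.33 and 27.0 combine a difference in counts with a difference in assigned transcript. The printed Slc18a3 promoter lies within the first intron of the longest Chat transcripts.

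The ratio of Calb2 to Calb1 was smaller at each later age. Calb2 was already abundant in the embryo, at 114, 104 and 91.1 CPM, and stood at 120 CPM (interval 115.6 to 123.8) at P7 and 214 CPM (interval 208.1 to 220.0) at P60. The P60 level was 2.07-fold above the e16.5 mean of 103 ± 11.7 CPM (SD, n = 3). Without the third e16.5 library that difference was 0.97 on the log2 scale and under 2-fold. Calb1 stood at 2.98, 1.80 and 1.52 CPM at e16.5, at 18.004 CPM (interval 16.5 to 19.6) at P7 and at 86.6 CPM (interval 82.8 to 90.4) at P60, which is 8.57-fold and 41.2-fold above the e16.5 mean. Per length, Calb2 stood at 48.6 to 54.2 times Calb1 at e16.5, 11.9 times at P7 and 4.74 times at P60. On the FPKM scale the log2 difference of Calb1 from e16.5 was 2.24 at P7, where CPM gave 3.04, and 4.49 at P60, where CPM gave 5.30.

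Th, the enzyme of the dopaminergic amacrine cells, was the member with the lowest adult CPM. It stood at 0.706, 0.807 and 0.934 CPM at e16.5, at 0.961 CPM (interval 0.633 to 1.40) at P7 and at 3.19 CPM (interval 2.51 to 3.99) at P60. The P7 interval spans the e16.5 libraries, and the P60 level was 3.32-fold above P7. Only 27 and 75 counts lie behind the last values.

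Ordered by FPKM, e16.5 retina was led by Calb2, whose libraries (66.2 to 82.4) lay far above all others. Gad2 (7.29 to 10.2) and Slc6a9 (2.76 to 12.7) followed and overlapped. Slc32a1 (1.88 to 2.64) lay below both, and it overlapped Gad1 (0.617 to 2.33), whose range took in Calb1 (1.36 to 1.55) and Th (0.733 to 1.23). Slc18a3 (0.0390 to 0.317) and Chat (0 to 0.0164) came last. At P60 the order was Gad1 (204), Calb2 (164), Slc6a9 (100.3), Calb1 (34.5), Chat (27.0), Slc32a1 (18.5), Gad2 (8.23), Th (3.03) and Slc18a3 (2.00). Gad2 had moved from rank 2 to rank 7 while its own FPKM stood at 7.29 to 10.2 and 8.23. This order depends on the assigned lengths. At P60 the implied length was 460 bases for Chat and 5056 for Gad2. By counts Chat (300) stood below Slc32a1 (1231) and Gad2 (1003) there.

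**Figure D2:**
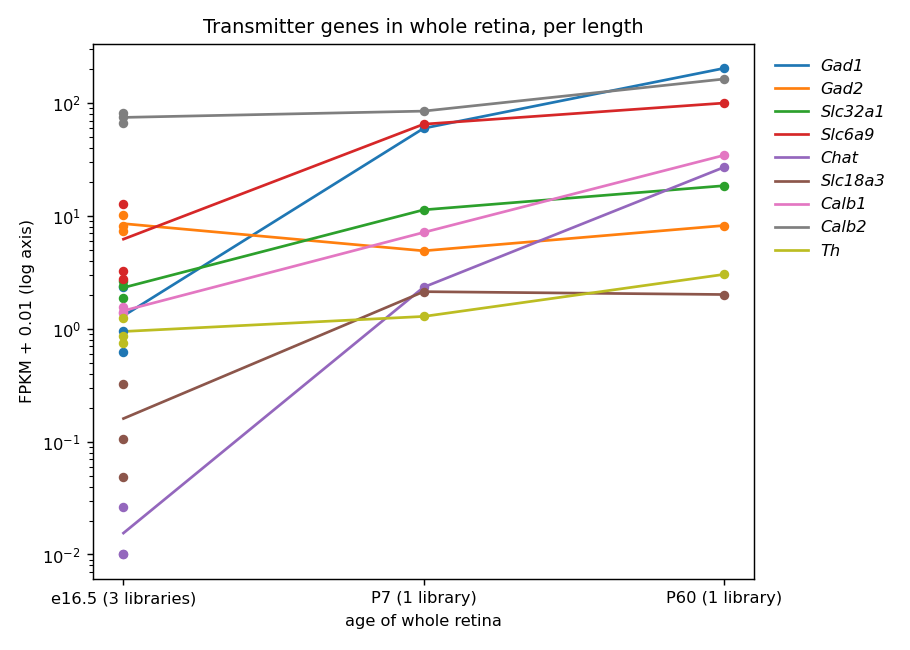
FPKM of each member in whole retina by age, with 0.01 added on a log axis; points are libraries and lines join the group means. Gad1 runs from 0.617 to 2.33 at e16.5 to 204 at P60, while Gad2 stays between 4.91 and 10.2.

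The other genes of these transmitter systems were read from gene lists, with no test at P60. Over all 15366 genes with at least 1 CPM on either side, 26.5% were at least 2-fold higher and 24.3% lower. From e16.5 to P60 retina, 6 of 10 measured genes of GABA synthesis, transport and breakdown were at least 2-fold higher and 0 lower, with a median log2 difference of 1.95 where the median of all genes was -0.06. Of 17 GABA receptor genes, 10 were higher and 1 lower (median 2.25), led by the rho subunits Gabrr2 (0.0965 ± 0.0808 CPM at e16.5, SD, n = 3, and 42.6 at P60) and Gabrr1 (0.458 ± 0.0806 and 113 CPM).

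Glycine genes were found on both sides. Of 11, 6 were higher and 3 lower at P60 (median 2.90), where 26.5% and 24.3% of all genes were. The count of lower genes was near that share. Higher were the receptor subunits Glra3 (1.11 ± 0.28 CPM at e16.5, SD, n = 3, and 59.4 at P60) and Glra1 (0.0164 ± 0.0284 and 9.34), and the neuronal transporter Slc6a5 (0.461 ± 0.213 and 12.1). Lower were enzymes of glycine metabolism, namely Gldc of the glycine cleavage system (396 ± 15.6 and 34.3 CPM) and the serine hydroxymethyltransferases Shmt1 (49.6 ± 4.57 and 2.63) and Shmt2 (155 ± 27.9 and 24.8).

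Cholinergic genes were found on both sides as well. Of 17, 10 were higher and 4 lower at P60 (median 1.23), where 26.5% and 24.3% of all genes were. The count of lower genes was again near that share. Beside Chat, the muscarinic receptors Chrm2 (0.424 ± 0.117 CPM at e16.5, SD, n = 3, and 19.1 at P60) and Chrm1 (0.199 ± 0.153 and 5.18) were higher, and the nicotinic subunits Chrna3 (101 ± 7.80 and 7.05), Chrnb4 (14.4 ± 1.17 and 0.892) and Chrna4 (62.0 ± 7.17 and 17.0) were lower. Of 10 dopamine genes, 5 were higher and 2 lower (median 1.19). The receptor Drd4 went from 0.213 ± 0.0803 to 113 CPM, while the vesicular monoamine transporter Slc18a2 went from 69.9 ± 4.71 to 13.8 CPM. Of 14 calcium-binding genes, 10 were higher and 1 lower (median 1.84), led by the photoreceptor gene Rcvrn (0.0658 ± 0.0304 and 745 CPM).

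Genes listed for amacrine and horizontal cell fate and identity were more often lower than higher. Of 31, 4 were at least 2-fold higher and 16 lower at P60 (median -1.04), where 26.5% and 24.3% of all genes were. Foxn4, which acts in progenitors upstream of both fates, stood at 111 ± 11.7 CPM (SD, n = 3) in e16.5 retina, against 3.74 at P7 and 0.0849 in the adult. Its target Ptf1a stood at 23.4 ± 1.99, 0.356 and 0 CPM. Prox1, which mature horizontal cells keep, was among the 4 higher (31.4 ± 4.18 and 156 CPM). Among 13 peptide and co-transmitter genes 9 were higher and 4 lower (median 3.14). Among 12 genes of a mixed list of horizontal cell junction and other genes, 6 were higher and 3 lower (median 0.90). Of that list, Trpm1 (3.17 ± 2.18 and 309 CPM) also stands in the bipolar marker list used here. Nefl and Nefm also stand in the ganglion cell marker list.

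In sorted microglia at e16.5, Slc32a1 and Calb2 were called lower than in retina by edgeR. The libraries of Gad2, Slc6a9 and Calb1 overlapped those of retina, and Gad1 and Th lay below retina without such a call. Chat and Slc18a3 had 0 counts. Log2 differences come from a fit scaled over these 6 libraries, which places microglia 0.37 higher against retina than the CPM scaled over all 14, so they exceed the ratios of the CPM printed beside them. Slc32a1 stood at 0.0819, 0.844 and 0 CPM in the microglia libraries, below all 3 retina libraries (log2 difference -4.09, SE 1.18, adjusted p = 0.0199). Calb2 stood at 0.0819, 1.69 and 0 CPM against 91.1 to 114 in retina (log2 difference -7.08, SE 1.15, adjusted p = 0.00170). These were the 2 called members of the 7 that passed the filter on low counts, both lower, where 63.2% of all 16140 genes were called, 33.1% higher and 30.1% lower. Adjusted p-values are Benjamini-Hochberg values from edgeR's quasi-likelihood test over all genes. Microglia replicate 2 held 11 counts of Slc32a1 and 22 of Calb2, where the other two held 1 and 0 of each, and without it the log2 differences were -7.03 and -10.96. Without retina replicate 1, 2 or 3 the adjusted p of Slc32a1 was 0.0594, 0.0531 and 0.0588. Slc18a3 had 0 counts in these 3 microglia libraries and was at least 5.16-fold lower than in retina, taking 3 counts over the group as the floor. Without retina replicate 1, which held 16 of the counts, that bound was 2.32-fold. Leaving out 1 microglia library gave 3.08-fold to 3.79-fold. Chat had 0 counts in microglia and 1 in retina, under that floor.

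Gad2 stood at 25.2, 38.9 and 37.1 CPM in e16.5 microglia, which overlaps the retina libraries, and the mean was 115% ± 25.3 of retina (SD, n = 3). The difference was 0.57 on the log2 scale (SE 0.27, adjusted p = 0.108, edgeR). It passed without the first microglia library (0.63, adjusted p = 0.0353) and under a filter of 5 CPM in 3 libraries (0.78, adjusted p = 0.0384), with Gad2 higher in microglia. On total counts the Gad2 difference was 0.17 (adjusted p = 0.588, edgeR), and without the second microglia library 0.33 (adjusted p = 0.243). Slc6a9 stood at 3.11, 5.75 and 21.5 CPM, or 158% ± 155 of retina (SD, n = 3), with the third library apart. The difference was 1.02 (SE 0.75, adjusted p = 0.266, edgeR), and without that library it was -0.26. Calb1 stood at 2.95, 3.60 and 1.55 CPM, or 129% ± 50.0 of retina (SD, n = 3), with a difference of 0.73 (SE 0.54, adjusted p = 0.273, edgeR).

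Gad1 stood at 0.819, 0.0767 and 0.539 CPM in e16.5 microglia, all below the retina libraries, at 26.7% ± 20.9 (SD, n = 3) of retina, but the difference did not pass (-1.53, SE 0.74, adjusted p = 0.110, edgeR). Th stood at 0.573, 0 and 0 CPM, also below all retina libraries (-1.75, SE 1.17, adjusted p = 0.227, edgeR). It passed without the first microglia library, the only one with Th counts (adjusted p = 0.00367). In the authors' deposited table the log2 difference of Th was -3.02 (adjusted p = 0.0398), under 0.05, and that of Gad1 was -2.51 (adjusted p = 0.0852). Of the 7 tested members, 4 did not overlap between microglia and retina, where 78.4% of all tested genes did not.

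Relative to retina, Gad2, Slc6a9 and Calb1 stood above general neuronal RNA in the same libraries. The pan-neuronal median was 10.7% to 15.8% of retina, the ganglion cell median 6.32% to 13.2% and the progenitor median 4.66% to 7.46%, against 86.1% to 132.6% for Gad2. The highest medians of the retinal lists in a single library were 29.0% for cone and 21.3% for Mueller glia and astrocyte genes. Over all tested genes the median log2 difference from retina was -0.13, and 33.1% were called higher. In that fit Gad2, Calb1 and Slc6a9 gave 0.57, 0.73 and 1.02, without a call. Calb2, which was the member with the highest FPKM in e16.5 retina, stood at 0% to 1.64% in these same microglia libraries. The part of neuronal RNA in the levels of Gad2, Slc6a9 and Calb1 was not tested.

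**Figure D3:**
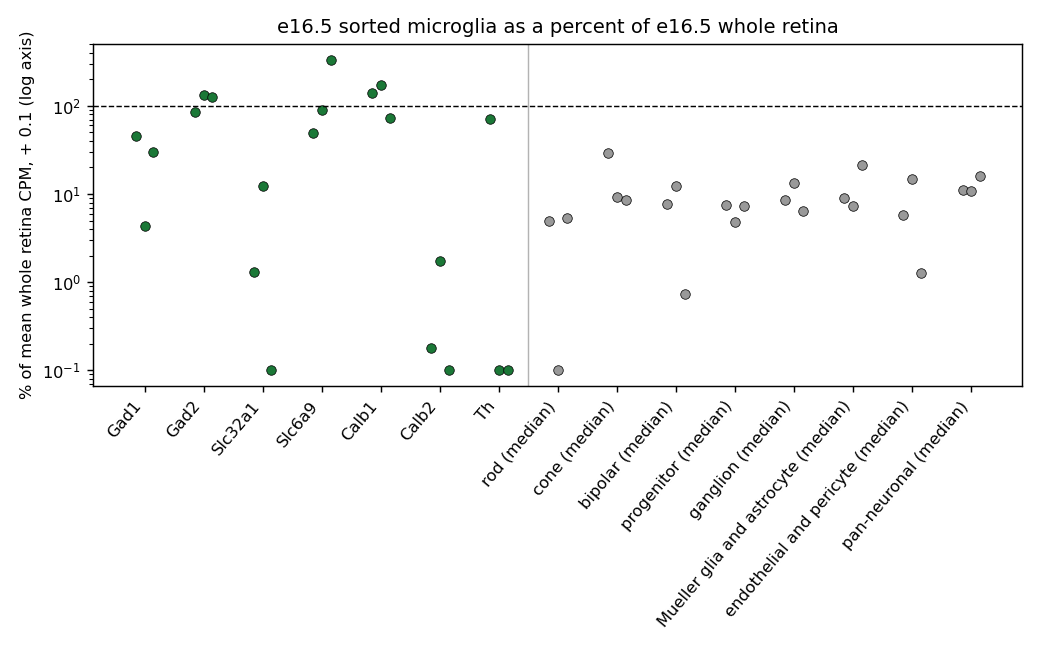
CPM in each e16.5 microglia library as a percent of the mean of the e16.5 retina libraries, with 0.1 added on a log axis; green points are 7 members, grey points the medians of retinal marker lists, and the dashed line marks equality. Gad2 lies at 86.1% to 132.6% and the pan-neuronal median at 10.7% to 15.8%.

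At P7 and P60 nearly every member stood far below whole retina in microglia. At P7, all 3 microglia libraries were at least 2-fold below the retina library for 7 members, where 30.7% of 16856 genes were, and at P60 for 8 members, where 28.7% of 17495 genes were. Gad1 stood at 1.38, 7.89 and 0.273 CPM at P7 and at 8.51, 1.63 and 0.178 CPM at P60, or 3.16% ± 4.09 and 1.26% ± 1.63 of retina (SD, n = 3). Without the second P7 library the share was 0.820%, and without the first P60 library 0.332%. Slc6a9 stood at 4.86, 6.11 and 2.66 CPM at P7 (4.97% ± 1.91 of retina, SD, n = 3) and at 1.37, 17.3 and 6.67 CPM at P60 (9.19% ± 8.82, and 4.38% without the second library). The 17.3 CPM belongs to the second P60 library, which also held the most rod and pan-neuronal RNA. The part of that RNA in its Slc6a9 level was not tested.

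Slc32a1 stood at 0.243, 0.170 and 0 CPM at P7 and had 0 counts in all P60 microglia libraries, at least 556-fold below retina. Chat had 0 counts in all 9 microglia libraries and was at least 58.2-fold lower than retina at P7 and at least 135-fold lower at P60. Slc18a3 likewise had 0 counts and was at least 89.7-fold and 51.0-fold lower. These bounds take 3 counts over the 3 libraries of an age as the floor, on total counts. Leaving out 1 microglia library raised that floor and lowered the bounds, at the least to 352-fold for Slc32a1, 34.3-fold and 85.8-fold for Chat and 52.9-fold and 32.3-fold for Slc18a3. Calb2 had 1, 21 and 0 counts at P7 and 0, 0 and 2 at P60, or 0.519% ± 0.841 and 0.0277% ± 0.0480 of retina (SD, n = 3). Without the second P7 library the P7 share was 0.0339%.

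Gad2 was the exception at both ages. It stood at 8.43, 4.41 and 20.3 CPM in P7 microglia, on both sides of the single retina library, at 72.7% ± 54.3 of it (SD, n = 3), and 42.3% without the third library. At P60 it stood at 2.15, 5.41 and 23.8 CPM, or 24.6% ± 27.5 of retina (SD, n = 3), and 8.88% without the third library. That library held the least pan-neuronal RNA of its age, 64.0 CPM over 8 genes where its companions held 153.8 and 408.4. The part of neuronal RNA in these Gad2 levels was not tested. Th stood at 0.0811, 0.255 and 0.205 CPM at P7, too low in both tissues for the count above, and at 0.587, 0.515 and 1.42 CPM at P60 (26.4% ± 15.9 of retina, SD, n = 3, and 17.3% without the third library).

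Calb1 stood at 2.11, 2.97 and 4.50 CPM in P7 microglia and 3.81, 4.04 and 7.21 CPM in P60 microglia, with all 9 microglia libraries between 1.55 and 7.21 CPM. As a percent of retina it went from 129% at e16.5 to 17.7% ± 6.74 at P7 and 5.80% ± 2.19 at P60 (SD, n = 3), beside higher retina levels. On the FPKM scale the shares were larger, 68.1% at P7 and 27.2% at P60. In the authors' deposited table, the comparison of microglia with the retina library had an adjusted p under 0.05 for 4 members at P7 (Gad1, Slc32a1, Slc6a9 and Calb2) and for 6 at P60 (these and Chat and Calb1), all lower in microglia, where these columns call 13% and 17.1% of all genes lower. The retina side of both comparisons is 1 library.

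Between ages within microglia, no member was called. Gad1, Gad2, Slc6a9 and Calb1 passed the filter on low counts, and 0 of these 4 passed the threshold in any of the 3 comparisons by edgeR, DESeq2 or limma-voom. At an unadjusted p under 0.05, edgeR also gave 0, while DESeq2 and limma-voom gave 1, Gad2, at both later ages against e16.5. The unadjusted p of Gad2 was 0.041 and 0.036 with DESeq2 and 0.020 and 0.010 with limma-voom, at P7 and P60 (adjusted p 0.443, 0.162, 0.454 and 0.118). Over all 16019 genes, edgeR called 0.2% between e16.5 and P7, 1.35% between P7 and P60 and 3.36% between e16.5 and P60. For Gad2, the e16.5 libraries lay above all P7 and P60 libraries, with group means of 33.7 ± 7.42, 11.0 ± 8.24 and 10.5 ± 11.7 CPM (SD, n = 3). The log2 difference was -1.64 at P7 (SE 0.84, adjusted p = 0.729, edgeR) and -1.66 at P60 (SE 0.84, adjusted p = 0.293, edgeR). Without the third P60 library the latter was -3.14 (adjusted p = 0.0774). Libraries did not overlap for 14% of all genes in the first comparison and for 26.2% in the second.

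Gad1 differed by 2.70 between e16.5 and P7 (SE 1.55, adjusted p = 0.792, edgeR) with overlapping libraries. The second P7 library held 93 counts where its companions held 17 and 4, and without it the difference was 0.73. Calb1 had higher libraries at P60 than at e16.5 throughout, 3.81 to 7.21 against 1.55 to 3.60 CPM, with a log2 difference of 0.91 (SE 0.82, adjusted p = 0.557, edgeR). Slc6a9 overlapped between all ages, and its difference of -1.16 between e16.5 and P7 (SE 0.98, adjusted p = 0.922, edgeR) was 0.015 without the third e16.5 library.

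The deposited comparison columns gave another result for Gad2. In the authors' deposited table Gad2 was higher in e16.5 microglia by 3.12 on the log2 scale against P7 (adjusted p = 0.0321) and by 3.13 against P60 (adjusted p = 0.0110). Counts divided by FPKM imply a transcript length for each gene in each library, scaled here on genes with 1 annotated transcript. For Gad2 it was 5901 to 5933 bases in 8 of the 9 microglia libraries, near the 5744 bases of the protein-coding transcript. In the third e16.5 library it was 969 bases, nearer the 721 bases of the other annotated one, a processed transcript. There the FPKM was 40.0, against 4.43 and 6.89 in its companions, at 37.1, 25.2 and 38.9 CPM. With these lengths as an offset in edgeR, an alternative chosen after seeing the data, the P7 difference was -3.15 (adjusted p = 0.617) and the P60 difference -3.21 (adjusted p = 0.177). Without that library they were -1.57 and -1.63.

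Retina gave intermediate Gad2 lengths, 2894, 3482 and 3268 bases in the e16.5 libraries, 2810 at P7 and 5056 at P60. These lie between the lengths of the 2 annotated transcripts. Against retina at e16.5, the Gad2 difference with lengths as an offset was 1.27 (adjusted p = 0.217, edgeR), and without the third microglia library it was -0.42. In the authors' deposited table it was 1.00 (adjusted p = 0.386).

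Calb1 lengths did not overlap between the tissues. In the 9 microglia libraries they were 523 to 932 bases, from 23 to 81 counts. In the 5 retina libraries they were 1038 to 2447 bases, from 31 to 59 counts at e16.5. For how many of all genes the lengths part in this way was not tested. The protein-coding transcript of Calb1 has 4222 bases and the retained-intron transcripts 701 and 736. In bases, the values of both tissues lie nearer the retained-intron lengths than the protein-coding length. With lengths as an offset, Calb1 was higher in e16.5 microglia than in retina by 2.06 (adjusted p = 0.0121, edgeR), and the authors' deposited table gives 1.79 (adjusted p = 0.00427). Slc6a9, with 12 annotated transcripts, varied from 397 to 1818 bases among microglia libraries and from 593 to 2049 in retina. Calb2 gave 1270 to 1279 bases wherever at least 20 counts allowed an estimate. In microglia these were only replicate 2 of e16.5 (22 counts) and replicate 2 of P7 (21 counts). Slc32a1 gave 2752 to 2758 bases in retina, and no microglia library held 20 counts. It has 1 annotated transcript, so its length had no other transcript to vary with.

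**Figure D4:**
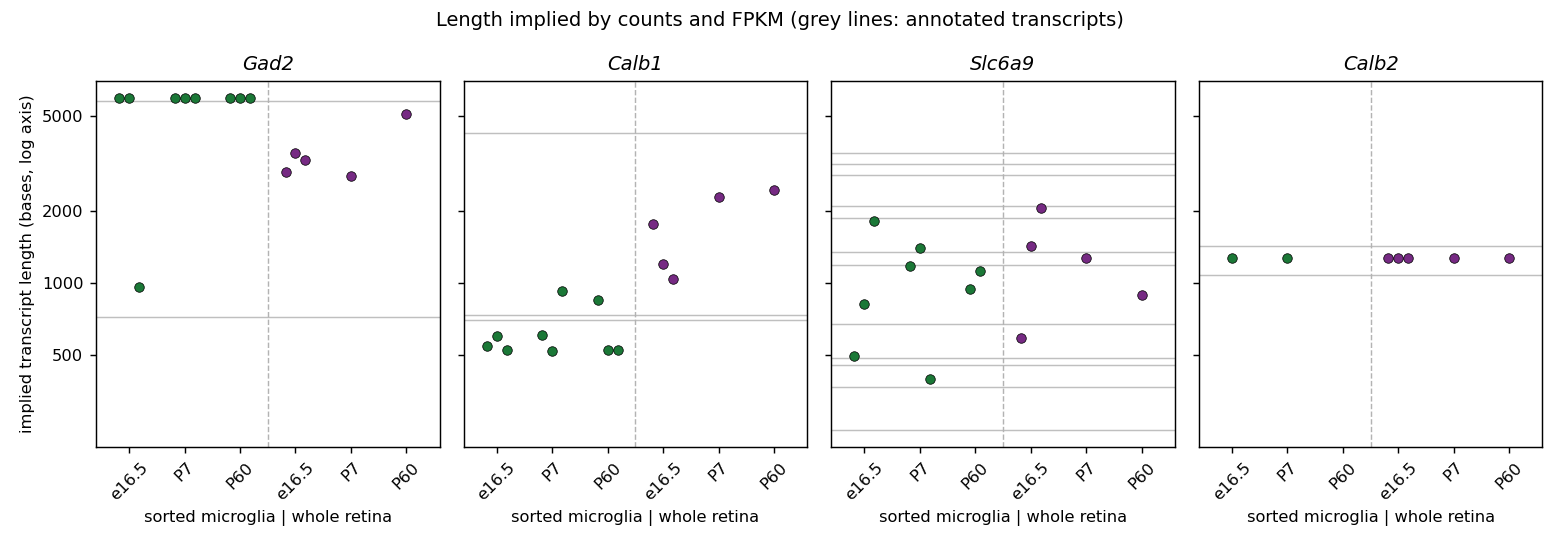
Transcript length implied by counts and FPKM in each library with at least 20 counts (log axis); green points are microglia, purple points whole retina, grey lines annotated transcript lengths. The third e16.5 microglia library has a Gad2 length of 969 bases, and Calb1 lengths in microglia (523 to 932) lie below those in retina (1038 to 2447).

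Genes of the same systems were also compared between microglia and retina at e16.5, where 30.1% of all tested genes were called lower and 33.1% higher. Of 9 tested genes of GABA synthesis, transport and breakdown, 6 were lower and 1 higher (edgeR), the higher one being the glutamine transporter Slc38a1 (419 ± 81.2 against 150 ± 7.14 CPM, SD, n = 3, adjusted p = 0.000233). Of 12 GABA receptor genes, 8 were lower and 1 higher. The higher one was the subunit Gabrb1, at 30.6 ± 21.5 against 1.55 ± 0.493 CPM (log2 difference 4.67, SE 0.76, adjusted p = 0.00173, edgeR). Of 9 dopamine genes, 5 were lower and 3 higher, among the latter Gch1, which makes the cofactor of tyrosine hydroxylase and of nitric oxide synthases. Gch1 stood at 15.2 ± 12.5 against 0.518 ± 0.309 CPM (SD, n = 3). Glycine genes gave 4 lower and 1 higher of 10, cholinergic genes 6 and 1 of 13, and calcium-binding genes 5 and 0 of 10. Peptide genes gave 6 and 2 of 10, and the mixed list of horizontal cell junction and other genes 5 and 1 of 12.

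Of 29 tested genes of the fate and identity list, 12 were lower and 3 higher in e16.5 microglia than in retina. Of all tested genes, 30.1% and 33.1% were. Prox1 was at 119 ± 36.1 against 31.4 ± 4.18 CPM (SD, n = 3, log2 difference 2.29, SE 0.27, adjusted p = 0.000488, edgeR), Tfap2a at 9.65 ± 6.19 against 2.18 ± 0.624 CPM and Nr4a2 at 41.6 ± 38.1 against 5.47 ± 1.67 CPM. Between e16.5 and P60 microglia, 6 of 25 genes of that list fell and 0 rose by edgeR. Of all genes, 2.5% and 0.861% did. Isl1 fell from 11.3 ± 11.1 to 0.246 ± 0.151 CPM and Megf10 from 18.7 ± 13.2 to 0.421 ± 0.653 CPM (SD, n = 3). Isl1 also stands in the ganglion cell and bipolar marker lists used here. Foxn4 fell from 18.4 ± 18.9 CPM to 0 counts in all P60 libraries. Progenitor markers moved with them, from 1947 to 2715 CPM over 12 genes in e16.5 microglia to 165 to 304 CPM at P60. The part of progenitor RNA in the counts of the fate and identity list was not tested. Among the other lists, Shmt2, Chrna3 and Calm3 fell over the same span, and in the GABA, dopamine, peptide and horizontal cell lists 0 genes passed.

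Over the 14 libraries, the genes with the pattern most like each member were found by Pearson correlation of log2(CPM + 0.1) among 13743 genes. Points share tissue and age, and r is a description. Gad1 was most like Adcy8 and Glra3 (r = 0.95 each), Slc32a1 like Trib3 (0.97), Slc6a9 like Esam (0.92) and Calb1 like Platr17 (0.93). Calb2 was most like Cbln2 (0.99), Chat like Gsg1l2 (0.98) and Slc18a3 like Gabrd (0.98). Gad2 had the lowest best match, Tmem255a (0.89). Its correlation with Gad1 was -0.18, while Slc32a1 and Calb2 correlated at 0.96 and Chat and Slc18a3 at 0.91. Th, under 5 CPM in every group, was not searched.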

How the data were processed

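RNA was sequenced from 9 sorted microglia and 5 whole retina libraries. The deposited table of 20902 genes, each with a highest count of at least 10, holds, per the file headers, counts and FPKM for each library, with log2 fold changes and adjusted p-values for 6 comparisons. The submitters' processing notes list Salmon 0.9.1, DESeq2 1.20.0 and GRCm38.p6, without saying which step each made. The deposited counts were taken as estimated counts, and were rounded before testing. The FPKM values deposited by the authors were used to compare levels between genes and to derive implied lengths. The authors' deposited log2 fold changes and their adjusted p-values are quoted only as theirs.

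Tests used edgeR 4.0.16 (TMM, filterByExpr, quasi-likelihood F test, Benjamini-Hochberg over all genes, threshold 0.05) in R 4.3.3. The 9 microglia libraries entered 1 fit and the 6 libraries of e16.5 another. Standard errors were derived from F. CPM were TMM-scaled over 14 libraries. Whole retina at P7 and P60 entered no test. Between retina ages, log2 ratios and the 2-fold limit used 0.1 CPM added, and printed folds had nothing added. DESeq2 1.42.0, limma 3.58.1 (voom), total counts, other filters, single groups, a replicate block and left-out libraries were alternatives. Scripts were tested on simulated data. All members are named, and from each list at most 3 genes a side with the largest changes and at least 5 CPM, or the 2 most abundant. From these, examples were printed. Members and lists were chosen with earlier results of these data known. 5 listed symbols had no row (Nppb, Gad1os, Drd3, Septin4 and Gabra6). Intervals and floors cover counting error only.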

Additional observations from a re-analysis of the deposited data

Results flagged for a closer look

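The Gad2 ratio of mean CPM between e16.5 and P60 had opposite signs in the 2 tissues, without a call in microglia. In microglia the log2 ratio of mean CPM was -1.68 (adjusted p = 0.293, edgeR). All P60 microglia libraries lay below all e16.5 libraries, where 26.2% of all genes did not overlap. In whole retina it was 0.54, and the single P60 library lay above all e16.5 libraries. The difference between the tissues was not tested, since retina at P60 has 1 library. On the deposited FPKM scale the retina ratio was -0.05. Implied lengths differ between these libraries, 969 bases for Gad2 in 1 e16.5 microglia library and 5901 to 5933 in the others, and 2894 to 3482 at e16.5 and 5056 at P60 in retina.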

How the results depend on the processing

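Alternatives ended or made few calls among the members. In the 3 age comparisons of microglia, 0 members were called under all 57 fits, those shown in the report and the alternatives together. Against retina at e16.5, leaving out 1 library gave 1 to 4 called members, where 2 were called; Calb2 passed in all fits, and Calb1 also passed with lengths as an offset (2.06, and 2.21 without the third e16.5 microglia library). The 2-fold counts in retina stayed within 1 member, Gad2 being under 2-fold between P7 and P60 as FPKM (0.73 on the log2 scale).

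Counts of all genes moved more. Between e16.5 and P7 they were 32 with edgeR, 328 with DESeq2, 58 under the filter of 5 CPM, 60 with limma-voom, 143 with only the 2 groups, and 1 with lengths as an offset (0 without the third e16.5 library; 821 at an unadjusted p under 0.05). Leaving out 1 library gave 0 to 61 (0 without the first P7 library, by edgeR, with 1115 at an unadjusted p under 0.05). Between P7 and P60 they were 217, 1249 with DESeq2, 82 with only the 2 groups, 73 with the offset (35 without that library) and 41 to 217 when leaving out 1 library. Between e16.5 and P60 they were 538, 1902 with DESeq2, 227 with only the 2 groups, 260 with the offset (22 without that library) and 174 to 530 when leaving out 1 library. The cause was not tested. Total counts in place of TMM shifted every gene by 0.20 between P7 and P60, 0.18 between e16.5 and P60 and -0.40 between microglia and retina (log2), and in retina by 0.25 from e16.5 to P7 and 0.13 to P60. The split of higher and lower calls was then 61 and 99, where TMM gave 42 and 175, 189 and 301, where TMM gave 138 and 400, and against retina 4679 and 5847, where TMM gave 5346 and 4860.

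Directions that turned all belong to uncalled differences (log2). Leaving out 1 library gave, for Slc6a9, -1.59 to 0.015 from e16.5 to P7, -0.14 to 1.43 from P7 to P60, -1.30 to 0.94 from e16.5 to P60 and -0.26 to 1.32 against retina. For Calb1 from e16.5 to P7 it gave -0.11 to 0.47, and from P7 to P60 it gave -1.78 to 2.07 for Gad1 and -1.50 to 0.74 for Gad2. With lengths as an offset, Slc6a9 from e16.5 to P60 turned (0.031, and 0.38 without microglia replicate 3 of e16.5), as did Calb1 from e16.5 to P7 (-0.053 and -0.31) and, without that library, Gad2 against retina (-0.42). Total counts turned Slc6a9 from e16.5 to P60 (0.058) and Gad2 from P7 to P60 (0.18), which the filter of 5 CPM also turned (0.060).

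The labels give no pairing by replicate number. Deviations of same-numbered microglia correlated at 0.02 to 0.18, positive in 9 of 9 pairs but over 0.1 in 5, and not in all 3 pairs of any comparison. Every library correlated best with its own number between P7 and P60 alone, a hint from the data and not the design. With the replicate block, 44, 367, 757 and 9475 genes were called in the 4 tested comparisons, in the order P7 against e16.5, P60 against P7, P60 against e16.5 and microglia against retina, and 0, 0, 0 and 2 members; Gad1 from P7 to P60 turned (-0.20). Depth limits Chat, Slc18a3, Slc32a1, Calb2 and Th in microglia, where most libraries held under 20 counts.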
